A study of Homo sapiens with 17 samples.

Results

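DDIT4 and 9 further genes that hold back the mTOR kinase, or are tied to genes that do, were followed in MDA-MB-231 cells given the death ligand TRAIL. The 10 genes (DDIT4, SESN1, SESN2, SESN3, TSC1, TSC2, DEPTOR, TSC22D3, FKBP5 and TXNIP) were taken by symbol from the 58870 entries of the deposited count table. The set was chosen by the measured levels of DDIT4, which were lower at 1 h of TRAIL than at 0 h and higher later, so the DDIT4 values below are given as a description, with no test. Tests are given for the other 9 genes.

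MDA-MB-231 is an established human line of triple-negative breast cancer, the class without hormone receptors or HER2 amplification, and the labels class it as mesenchymal and basal B. The cells received 45 nM TRAIL, a TNF family ligand that can start apoptosis, at a dose that the study describes as suboptimal so that living cells could be profiled. RNA was taken at 0, 1, 3, 6, 12 and 24 h, and 17 stranded mRNA libraries were analysed, 3 per time and 2 at 1 h. Each of these libraries, 0 h included, is labelled TRAIL treated, and no later time has an untreated counterpart here, so hours with TRAIL and hours in culture cannot be told apart. No label says whether replicates were separate cultures, so p-values measure only the spread between these libraries, which may be technical.

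The mTOR kinase sits in a pair of complexes, mTORC1 and mTORC2, and drives protein synthesis and growth when nutrients and growth factors are present. Growth factor signals reach mTORC1 through PI3K and AKT, which silence the TSC1/TSC2 complex, the brake on the small GTPase RHEB, while amino acids act through the Rag GTPases under control of the GATOR complexes. DDIT4 (also REDD1) restrains mTORC1 through the TSC complex and is induced by hypoxia, glucocorticoids, energy stress and the transcription factor ATF4, and the sestrins act on GATOR. DEPTOR binds mTOR itself. TSC22D3 (also GILZ) and FKBP5 are classic glucocorticoid receptor targets, and the TSC in the name TSC22D3 stands for TGF-beta-stimulated clone, not for the tuberous sclerosis complex. TXNIP binds thioredoxin, lowers glucose uptake, and has been described as a partner of the DDIT4 protein.

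Total counts ranged from 13731520 to 19234924 per library. Of 8 markers of mesenchymal, basal B cells, 7 were above 1 CPM (counts scaled to the size of the library) at every time, with a mean of 3251.1 CPM for VIM and 1337.7 CPM for CD44, while SPARC stood at 0.648 CPM. Of 8 luminal, hormone receptor and HER2 markers, 5 averaged above 1 CPM. These were KRT8 (976.6 CPM), KRT18 (692.0), KRT19 (391.7), ERBB2 (62.8) and GATA3 (10.5), while oestrogen receptor ESR1 (0.044), PGR (0.00366) and FOXA1 (0.0147) were close to 0. Of 7 epithelial markers, 3 averaged above 1 CPM (CLDN4 at 69.9, CLDN7 at 17.7 and EPCAM at 16.3), and E-cadherin CDH1 had 0.481 CPM. The T cell gene CD3E was at 0 in 17 of 17 libraries and the leukocyte gene PTPRC had 0.103 CPM. Replicates 2 and 3 were closer to each other at 6 h (chi-square per gene 1.57) and at 24 h (1.67) than the other replicate pairs (3.68 to 13.5), and a fit with these pairs averaged is given where it changes a call.

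The 3 members whose promoters are shown are those with the highest level per transcript length or the most calls below, and they allow the CCAAT boxes and the carbohydrate response element of TXNIP to be read directly. RefSeq promoter entries (GRCh38.p14) were found for 9 of the 10 genes, all but DEPTOR. Each line holds the 250 bases before a transcription start, 5′ to 3′ in the direction of transcription, with capitals marking CCAAT or its reverse complement, ACGTG (the core of a hypoxia response element, read on either strand) and CACGAG. DDIT4 is at chr10:72273674-72273923 on the plus strand, SESN2 at chr1:28259268-28259517 on the plus strand, and TXNIP at chr1:145996580-145996829 on the minus strand.
DDIT4: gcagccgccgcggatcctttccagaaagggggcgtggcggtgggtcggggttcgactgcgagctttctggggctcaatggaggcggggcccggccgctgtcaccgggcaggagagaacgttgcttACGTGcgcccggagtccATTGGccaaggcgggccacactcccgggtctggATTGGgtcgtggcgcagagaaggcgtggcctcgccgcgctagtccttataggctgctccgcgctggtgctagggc
SESN2: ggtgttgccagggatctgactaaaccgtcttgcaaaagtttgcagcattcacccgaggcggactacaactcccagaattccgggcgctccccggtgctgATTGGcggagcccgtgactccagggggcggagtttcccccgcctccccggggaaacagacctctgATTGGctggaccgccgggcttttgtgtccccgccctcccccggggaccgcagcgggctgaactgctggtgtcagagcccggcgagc
TXNIP: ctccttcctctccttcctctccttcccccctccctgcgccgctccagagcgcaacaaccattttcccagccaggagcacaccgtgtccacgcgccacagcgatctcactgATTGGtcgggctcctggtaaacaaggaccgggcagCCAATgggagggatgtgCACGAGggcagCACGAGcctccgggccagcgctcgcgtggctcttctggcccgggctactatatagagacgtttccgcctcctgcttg

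Each of the 3 windows held 2 CCAAT boxes, which began 108 and 75 bases before the start in DDIT4, 151 and 86 in SESN2, and 140 and 105 in TXNIP. At least 2 CCAAT boxes, on either strand, were present in 9.53% of the 35116 promoter windows of the same length, and at least 1 in 32.0%. DDIT4 also had ACGTG at 125 bases before the start, a run found in 18.5% of windows. TXNIP held CACGAG at 88 and 77 bases before the start, and this spaced pair, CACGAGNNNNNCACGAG, was found in 2 of the 35116 windows. The pair has the layout of a carbohydrate response element, the kind of site that MondoA and ChREBP are known to bind. Within the windows of TSC2 and FKBP5 there was a CACGTG E-box, 114 and 227 bases before the start (6.34% of windows), whose letters overlap ACGTG on both strands. The motifs were chosen after the sequences had been seen, and a match describes letters only.

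DDIT4 was lower at first and stood above its starting level later. Its gene lies on chromosome 10 from 72273920 to 72276036 (GENCODE 29, GRCh38). The 3 libraries at 0 h had 75.3, 80.9 and 76.8 CPM, and the 2 at 1 h had 39.2 and 34.7 CPM. At 3 h the values were 48.9, 46.6 and 39.6 CPM, and at 6 h they were 84.1, 81.4 and 88.7 CPM. All libraries at 1 and 3 h were thus below all at 0 h, and those at 6 h were just above. Values of 137.1, 130.1 and 131.4 CPM followed at 12 h, with 123.0, 120.8 and 128.0 CPM at 24 h. Relative to 0 h the log2 fold change was -1.07 at 1 h and -0.79 at 3 h, then 0.13 at 6 h, and 0.77 and 0.67 at the last 2 times. The mean level at 12 h was 3.6 times that at 1 h, the widest span among the 10 genes, though DDIT4 was chosen for such changes. The step from 3 to 6 h, of 0.91 on the log2 scale, was the largest rise between neighbouring times, and 0.65 followed from 6 to 12 h. An antisense gene, DDIT4-AS1, overlaps DDIT4, and it had counts in 4 libraries (3 at 6 h and 1 at 1 h), the same 4 in which the DDIT4 count was not whole. Those antisense counts came to at most 1.89% of the DDIT4 count.

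**Figure D1:**
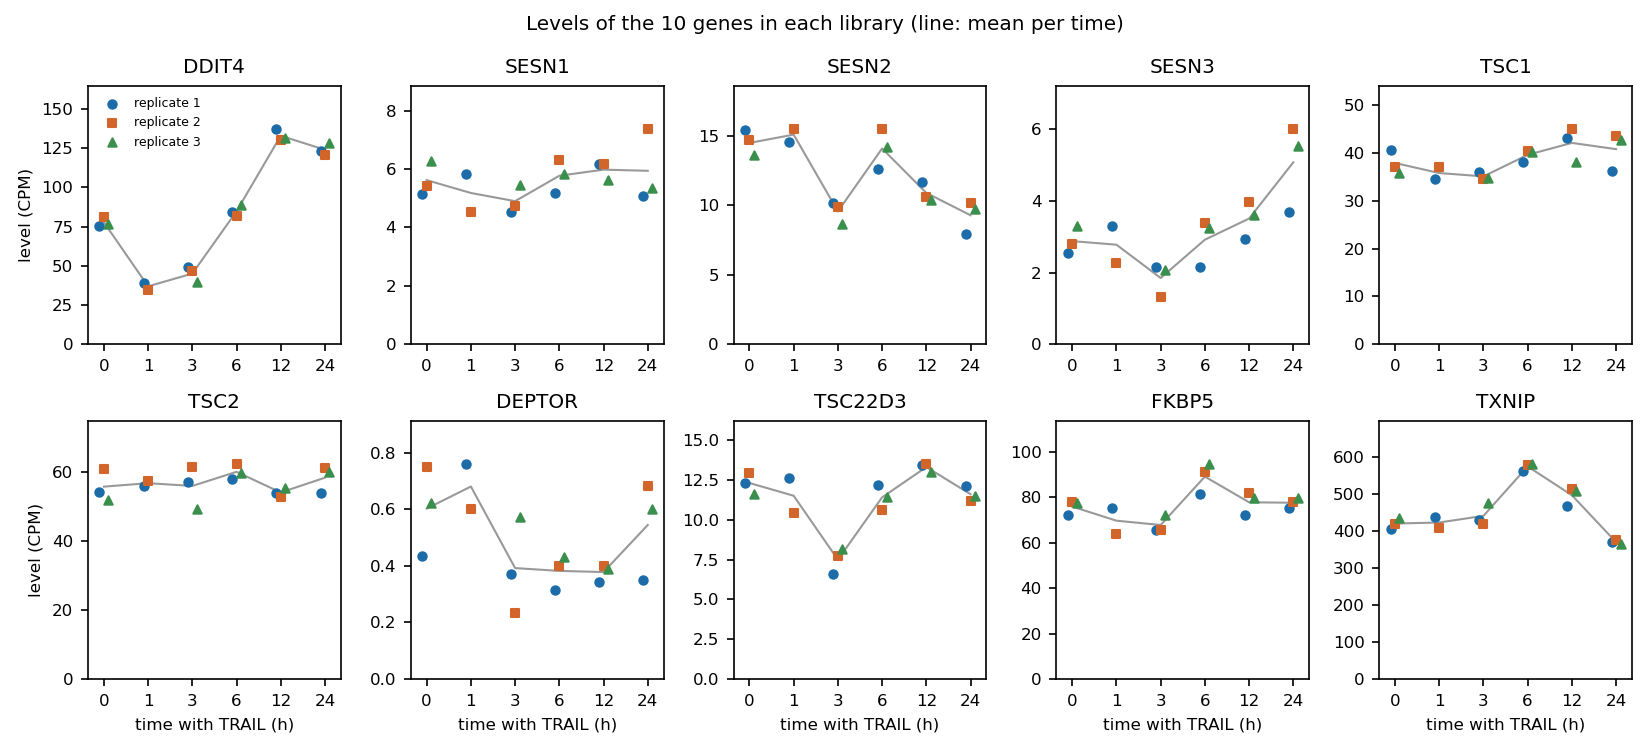
Level of each of the 10 genes in CPM (vertical axis, from 0) against time with TRAIL in hours (horizontal axis, evenly spaced and not to scale), with 1 symbol per library and a line through the mean of each time. DDIT4 dips at 1 and 3 h and peaks at 12 h, SESN2 and TSC22D3 dip at 3 h, and TXNIP peaks at 6 h.

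In the plot of levels by library, the other members at 1 h lay close to their values at 0 h. With edgeR's quasi-likelihood test and Benjamini-Hochberg adjustment over all 15365 genes tested, which gives each adjusted p below, a gene was called at an adjusted p under 0.05. All 10 genes passed the filter on low counts. At 1 h, 0 of the 9 members other than DDIT4 were called, against 0.312% of all genes. DESeq2 and limma-voom also called 0 of them, and 0 had an unadjusted p under 0.05, which 791 of all genes had.

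The sestrins followed 3 different courses, and SESN2, the sestrin that senses leucine and is induced by ATF4, was called most often. SESN2 had 15.4, 14.7 and 13.6 CPM at 0 h and stayed at 14.6 and 15.5 CPM at 1 h. At 3 h it had 10.2, 9.86 and 8.68 CPM, and at 6 h 12.6, 15.5 and 14.2 CPM. It therefore dipped at 3 h without overlap with 0 h, and its values overlapped those at 0 h again at 6 h. Later values were 11.7, 10.6 and 10.4 CPM at 12 h and 7.96, 10.2 and 9.74 CPM at 24 h, again all below 0 h. Relative to 0 h, the log2 difference was -0.61 (SE 0.109, adjusted p = 8.5e-04) at 3 h and -0.65 (SE 0.107, adjusted p = 2.0e-04) at 24 h. At 12 h it was -0.42 (SE 0.104, adjusted p = 0.0122). SESN2 rose by 0.56 from 3 to 6 h (SE 0.109, adjusted p = 5.3e-04) and fell again by 0.37 from 6 to 12 h (SE 0.104, adjusted p = 0.0153). The call at 12 h was lost without replicate 1 of 0 h (-0.39, adjusted p = 0.0554) or replicate 2 of 12 h (-0.4, adjusted p = 0.0598). That from 6 to 12 h was lost without replicate 2 of 6 h (-0.31, adjusted p = 0.0882), replicate 3 of 6 h (-0.37, adjusted p = 0.0552) or replicate 3 of 12 h (-0.34, adjusted p = 0.0591), and with the close replicates averaged (-0.33, adjusted p = 0.0791).

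SESN3, a sestrin under FOXO control, was higher at the end of the series. Its levels were low, from 17 to 97 counts per library. It had 2.55, 2.8 and 3.3 CPM at 0 h, 2.15, 1.32 and 2.08 CPM at 3 h, and 3.69, 6.01 and 5.54 CPM at 24 h. The 24 h libraries all stood above those at 0 h, although 1 of them by little. SESN3 rose by 0.81 on the log2 scale at 24 h (SE 0.218, adjusted p = 0.00745) and by 0.65 from 3 to 6 h (SE 0.256, adjusted p = 0.0443). Its value of -0.63 at 3 h against 0 h did not pass (SE 0.257, adjusted p = 0.0936), though it did with no filter on low counts (-0.65, adjusted p = 0.0455). Without replicate 2 of 24 h the 24 h value was 0.67 (adjusted p = 0.05), and the call from 3 to 6 h was lost under 9 of 20 alternatives, among them DESeq2 (adjusted p = 0.0636), limma-voom (adjusted p = 0.0802) and the omission of replicate 1, 2 or 3 of 3 h (0.77, 0.47 and 0.74) or of replicate 2 or 3 of 6 h (0.55 and 0.57).

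SESN1, the p53-responsive sestrin, was called in none of the 9 comparisons nor in the test over all times (adjusted p = 0.481). Its means per time ran from 4.9 ± 0.485 CPM (SD, n = 3) at 3 h to 5.98 ± 0.324 CPM (SD, n = 3) at 12 h. Its counts, 61 to 123 per library, give standard errors of 0.147 to 0.178 on the log2 scale.

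The 2 subunits of the TSC complex stayed close to their starting level. TSC1, the scaffold subunit, had means from 35.1 ± 0.872 CPM (SD, n = 3) at 3 h to 42.1 ± 3.52 CPM (SD, n = 3) at 12 h, and TSC2, the catalytic subunit, had 54.1 ± 1.4 CPM (SD, n = 3) at 12 h to 60.1 ± 2.19 CPM (SD, n = 3) at 6 h. Neither was called in any of the 9 comparisons, with standard errors of at most 0.0924 for TSC1 and 0.0879 for TSC2, but with library size only TSC1 was called from 3 to 6 h (0.24, adjusted p = 0.0262). The test over all times gave an adjusted p of 0.0526 for TSC1 and 0.506 for TSC2. Under 7 alternatives TSC1 passed, with an adjusted p between 0.0037 (library size only) and 0.0473, namely also RLE scaling, no filter, DESeq2, and the omission of replicate 1 of 0 h, replicate 3 of 12 h (adjusted p = 0.0219) or replicate 1 of 24 h (adjusted p = 0.0111). TSC2 overlaps NTHL1 and PKD1 on the other strand, and its count was not whole in 16 of 17 libraries.

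DEPTOR, the subunit that inhibits mTOR directly, was barely detected, at 3 to 12 counts per library. Its values at 6 h (0.316, 0.398 and 0.432 CPM) and 12 h (0.343, 0.401 and 0.389 CPM) lay below those at 0 h (0.436, 0.748 and 0.622 CPM). With standard errors of 0.377 to 0.448 on the log2 scale, these differences (-0.64 at 6 h, adjusted p = 0.235, and -0.65 at 12 h, adjusted p = 0.294) were not detectable at this depth.

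TSC22D3, the glucocorticoid-induced leucine zipper, dipped at 3 h alone among the times tested against 0 h. It had 12.3, 12.9 and 11.6 CPM at 0 h and 12.6 and 10.4 CPM at 1 h. At 3 h the values were 6.6, 7.69 and 8.17 CPM, and at 6 h they were back at 12.2, 10.6 and 11.4 CPM. No library at 3 h reached the range of any other time. The log2 fold change at 3 h was -0.71 (SE 0.105, adjusted p = 1.2e-04), and the return from 3 to 6 h was 0.61 (SE 0.106, adjusted p = 2.3e-04). Against 1 h the 3 h value was -0.62 (SE 0.117, adjusted p = 0.00281), a call that was lost without replicate 1 of 1 h (-0.48, adjusted p = 0.111) and with only those 2 times in the fit (adjusted p = 0.059). At 12 h (13.4, 13.5 and 13.0 CPM) all libraries were above 0 h, but the difference of 0.12 did not pass (adjusted p = 0.459).

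FKBP5, the co-chaperone of the glucocorticoid receptor that also brings AKT to its phosphatase, was highest at 6 h. It had 72.1, 78.1 and 77.6 CPM at 0 h, 65.6, 65.5 and 72.3 CPM at 3 h, and 81.3, 91.2 and 94.7 CPM at 6 h. The 6 h libraries lay above those of both earlier times. FKBP5 rose by 0.39 from 3 to 6 h (SE 0.0743, adjusted p = 4.1e-04) and by 0.23 at 6 h against 0 h (SE 0.0732, adjusted p = 0.0229). The second of these calls was lost under 7 of 20 alternatives, among them upper-quartile scaling (0.16, adjusted p = 0.0745), an offset for transcript length and GC content (0.068, adjusted p = 0.359), the close replicates averaged (0.19, adjusted p = 0.132) and the omission of replicate 1 of 0 h (0.19), replicate 2 of 6 h (0.21) or replicate 3 of 6 h (0.18). At 24 h the same offset turned a difference of 0.031 (adjusted p = 0.773) into -0.17 (adjusted p = 0.0203).

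TXNIP, the thioredoxin inhibitor and the most abundant member, rose to a peak at 6 h and ended below its start. It had 404.4, 419.5 and 435.2 CPM at 0 h, and its values at 1 and 3 h overlapped these. At 6 h it had 562.2, 578.6 and 580.8 CPM, at 12 h 466.2, 514.2 and 508.4 CPM, and at 24 h 369.6, 375.3 and 363.6 CPM. Each of these 3 times lay outside the 0 h range. TXNIP exceeded its 0 h level by 0.45 on the log2 scale at 6 h (SE 0.0577, adjusted p = 2.0e-05), by 0.24 at 12 h (SE 0.0577, adjusted p = 0.0102), and stood at -0.18 at 24 h (SE 0.0578, adjusted p = 0.0187). Between neighbouring times TXNIP rose by 0.38 from 3 to 6 h (adjusted p = 8.6e-05), fell by 0.21 from 6 to 12 h (adjusted p = 0.0144) and fell by 0.43 from 12 to 24 h (adjusted p = 1.9e-04). The call at 12 h was lost without replicate 1 of 0 h (0.21, adjusted p = 0.0568) or replicate 2 of 12 h (0.22, adjusted p = 0.0599). That at 24 h was lost with library size only (-0.11, adjusted p = 0.191), with the close replicates averaged (-0.19, adjusted p = 0.0511) and without replicate 3 of 0 h (-0.16) or of 24 h (-0.17). The fall from 6 to 12 h was lost under 6 of 20 alternatives, including the omission of replicate 2 or 3 of 6 h (-0.2 in each case) or replicate 1 of 12 h (-0.17), with values from -0.2 to -0.14.

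**Figure D2:**
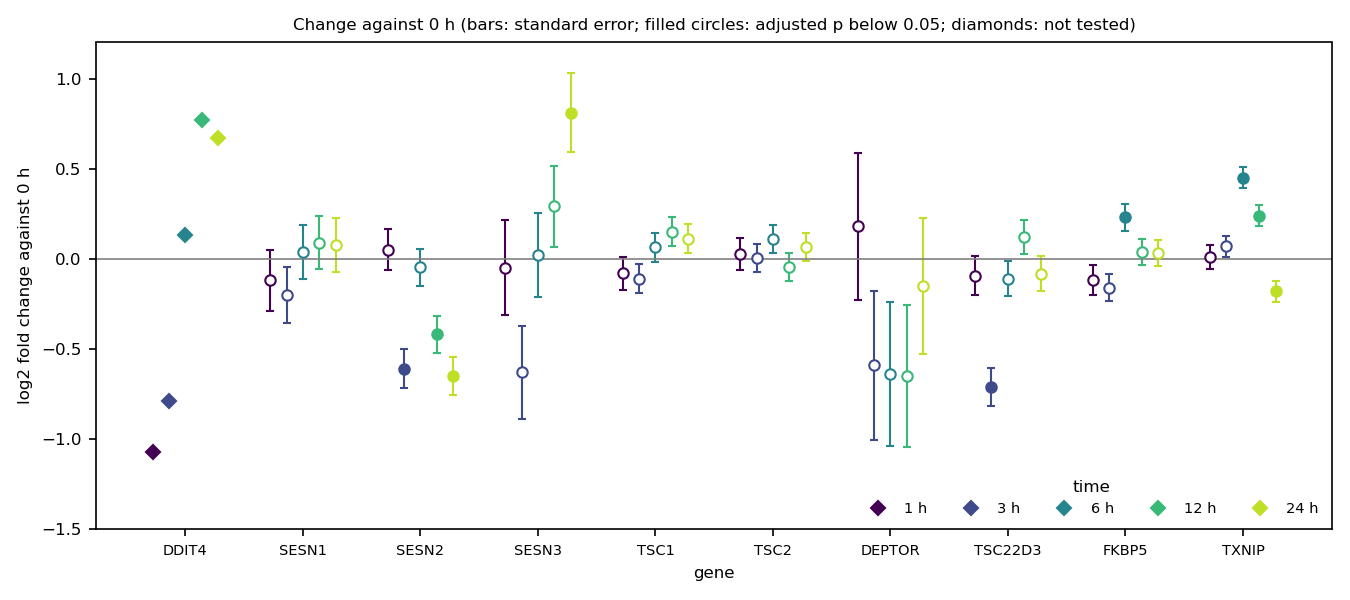
Log2 fold change against 0 h (vertical axis) of each gene (horizontal axis) at 1, 3, 6, 12 and 24 h, in colour, with bars of 1 standard error. Filled circles passed an adjusted p of 0.05 and diamonds (DDIT4) were not tested. DDIT4 runs from -1.07 to 0.77, SESN2 and TSC22D3 lie below 0 at 3 h, and DEPTOR has the widest bars.

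Set beside all genes, the counts of called members were near the background at most times. The plot of fold changes gives the members' values with their errors. At 3 h, 2 of 9 members were called, both lower (SESN2, TSC22D3), with 17.7% of all genes called and 8.71% called lower. At 6 h, 2 of 9 were called, both higher (FKBP5, TXNIP), against 30.1% of all genes called and 16.9% called higher. At 12 h, SESN2 was lower and TXNIP higher (12.4% of all genes), and at 24 h SESN2 and TXNIP were lower and SESN3 higher (35.1%). From 1 to 3 h, SESN2 and TSC22D3 fell (5.73% of all genes called, 2.56% lower). From 3 to 6 h, 5 of 9 members were called and all 5 rose (SESN2, SESN3, TSC22D3, FKBP5 and TXNIP), while 43.2% of all genes were called and 22.9% were called higher. DESeq2 and limma-voom each called 4 of 9 there. From 6 to 12 h, SESN2 and TXNIP fell (20.6% called, 11.9% lower), and from 12 to 24 h TXNIP fell (12.0% called, 5.6% lower). Over all times 5 of 9 were called, against 64.2% of all genes. The median log2 fold change of the 9 genes from 3 to 6 h was 0.38, beside -0.0204 over all genes, and at 3 h against 0 h it was -0.2, beside -0.00407.

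Other measures moved with time too. The lowest mean log2 CPM was at 3 h for 6 of the 9 members other than DDIT4, as it was for 25.4% of all genes, while 25.3% of all genes were lowest at 24 h. The summed level of 7 epithelial markers was 99.9 to 112.1 CPM at 0 h, 71.7 to 75.2 CPM at 3 h, 98.5 to 99.4 CPM at 6 h, 114.9 to 123.6 CPM at 12 h and 130.0 to 141.0 CPM at 24 h, with 3 of the 7 above 1 CPM. Of 7 leukocyte and endothelial markers 2 were above 1 CPM (CD68 and PECAM1), and their sum was 76.6 to 88.0 CPM at 0 h, 58.9 to 65.3 CPM at 3 h and 95.9 to 102.6 CPM at 24 h. The 8 mesenchymal and basal B markers summed to 8118.1 to 8545.9 CPM at 0 h, 9066.4 to 9367.1 CPM at 6 h and 7405.4 to 7435.7 CPM at 24 h. For the 8 luminal, hormone receptor and HER2 markers the sum was 2250.5 to 2349.5 CPM at 0 h, 1853.0 to 1982.2 CPM at 6 h and 1734.4 to 1941.5 CPM at 24 h. Mitochondrially encoded transcripts made up 6.75% ± 1.46 (SD, n = 3) of counts at 0 h, 8.68% ± 1.45 (SD, n = 2) at 1 h and 8.59% ± 0.521 (SD, n = 3) at 3 h. Lower shares followed, with 4.49% ± 0.83 of counts at 6 h, then 5.72% ± 0.953 (12 h) and 3.9% ± 0.24 (24 h; SD, n = 3). The part of these shifts in the members' calls at 3, 6, 12 and 24 h was not tested. In these bulk libraries fewer cells of a kind and less RNA per cell cannot be told apart.

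**Figure D3:**
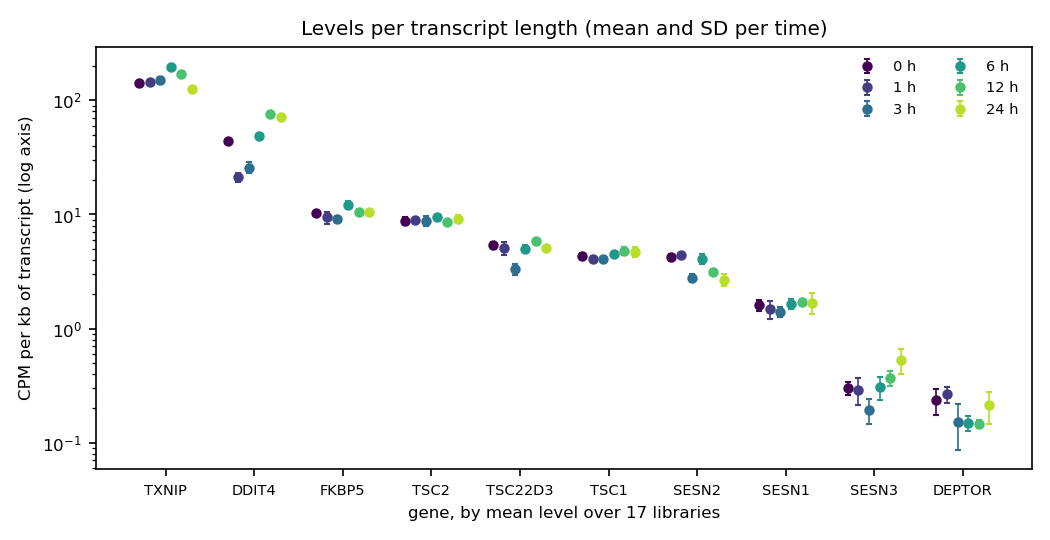
Level in CPM per kb of transcript (vertical axis, log scale) of each gene, ordered by its mean over the 17 libraries, with the mean per time and bars of 1 SD. TXNIP (155.7 on average) and DDIT4 (49.3) stand highest, and SESN3 (0.334) and DEPTOR (0.189) lowest.

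Levels were compared between genes per kb of the longest coding transcript, as in the plot of levels per length. Over the 17 libraries TXNIP averaged 155.7 ± 24.2 CPM per kb (SD, n = 17) and DDIT4 49.3 ± 20.8 CPM per kb (SD, n = 17). FKBP5 followed at 10.4 ± 1.11 and TSC2 at 8.96 ± 0.601 CPM per kb, with overlapping ranges. Next came TSC22D3 (4.96 ± 0.892), TSC1 (4.44 ± 0.391) and SESN2 (3.5 ± 0.745), which overlapped in range. SESN1 stood at 1.59 ± 0.21, and SESN3 (0.334 ± 0.125) and DEPTOR (0.189 ± 0.0622) overlapped at the bottom. SESN2 was thus the most abundant sestrin at every time, at 4.21 ± 0.264 CPM per kb at 0 h and 2.69 ± 0.338 at 24 h (SD, n = 3). The relative spread over the 17 libraries was widest for DDIT4 (coefficient of variation 42.1%), followed by SESN3 (37.5%) and DEPTOR (32.9%), and narrowest for TSC2 (6.71%). DDIT4 was chosen for its changes over time, so its place is not a finding of its own. DEPTOR had 3 to 12 counts per library, so its spread includes much counting noise.

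The members did not move as a block. Among the 45 pairs of members, Pearson's r of log2 CPM over the 17 libraries ran from -0.34 to 0.73 with a median of 0.23, and 12 pairs were above 0.5 and 8 below 0. These values are descriptions, since libraries of 1 time share their treatment and handling. Closest to DDIT4 among members was TSC1 (r 0.73), ahead of SESN3 (0.68) and TSC22D3 (0.62), while SESN2 had -0.26 and TXNIP 0.05. When the means of the 6 times were used instead, TSC1 (0.96) and SESN1 (0.93) were closest to DDIT4. SESN1 had 0.52 over the 17 libraries. SESN2 (-0.36) and TXNIP (0.1) again were not close. Over all 11368 genes compared, the 5 most like DDIT4 were SIN3B (r 0.95), TOB1, ZKSCAN3, STAT6 and SOX13 (each 0.94). Over the 6 means per time, from the same libraries that chose these genes, their r was 0.97 to 0.99. TOB1, an antiproliferative protein that recruits the deadenylation machinery, had 11.9 ± 0.374 CPM at 0 h (SD, n = 3), 9.52 ± 1.4 at 1 h (SD, n = 2) and 18.4 ± 1.01 at 12 h (SD, n = 3). SIN3B, a corepressor scaffold, had log2 fold changes of -0.16 at 1 h and 0.13 at 12 h. STAT6, the transcription factor of interleukin signalling, had -0.11 at 1 h and 0.17 at 12 h.

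**Figure D4:**
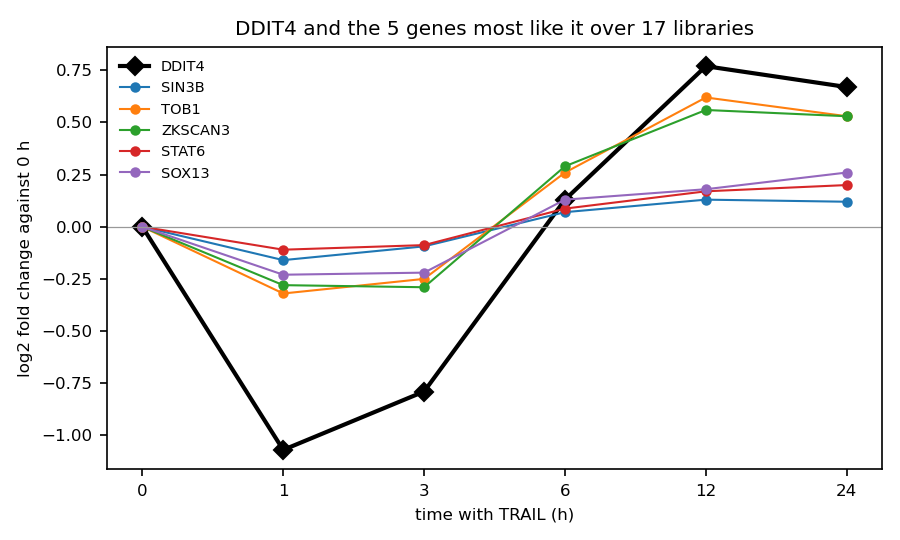
Log2 fold change against 0 h (vertical axis) of DDIT4 and the 5 genes with the highest correlation to it over 17 libraries, by time with TRAIL in hours (evenly spaced, not to scale). All 6 lie below 0 at 1 and 3 h and above 0 from 6 h on, and none of the 5 falls as far as DDIT4 (-1.07 at 1 h).

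In the plot of DDIT4 and its nearest genes, the shared shape follows from the choice of the 5 genes by their r with DDIT4 over these 17 libraries. The sizes differed, and at 12 h TOB1 (0.62) and ZKSCAN3 (0.56) came nearest to the 0.77 of DDIT4. By the same measure the gene most like each other member was RFFL for SESN1 (r 0.85), SH3BP2 for SESN2 (0.87), ATP7A for SESN3 (0.97), ARID4A for TSC1 (0.87), DNM2 for TSC2 (0.88), CCNE2 for DEPTOR (0.82), PMP22 for TSC22D3 (0.93), SF3A1 for FKBP5 (0.96) and ODC1 for TXNIP (0.96). ODC1, the rate-limiting enzyme of polyamine synthesis, had 210.1 ± 6.13 CPM at 0 h, 320.8 ± 4.93 CPM at 6 h and 198.0 ± 12.7 CPM at 24 h (SD, n = 3). PMP22, a membrane protein of myelin, had 75.8 ± 2.07 CPM at 0 h, 55.9 ± 3.18 CPM at 3 h and 75.2 ± 1.12 CPM at 6 h (SD, n = 3).

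Genes around the members were read from 12 lists of pathway partners and known inducers, with 146 genes tested. The lists were drawn up with earlier results of these data known, so their shares are a description and not a test. At 1 h, 4.11% of the 146 genes were called (SGK1, NFKBIA, GADD45A, GADD45B, ATF3 and PPP1R15A), beside 0.312% of all genes. The share was 29.5% (all genes 17.7%) after 3 h and 44.5% (30.1%) after 6 h. For 12 h it was 19.2% (12.4%), and for 24 h 45.9% (35.1%).

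**Figure D5:**
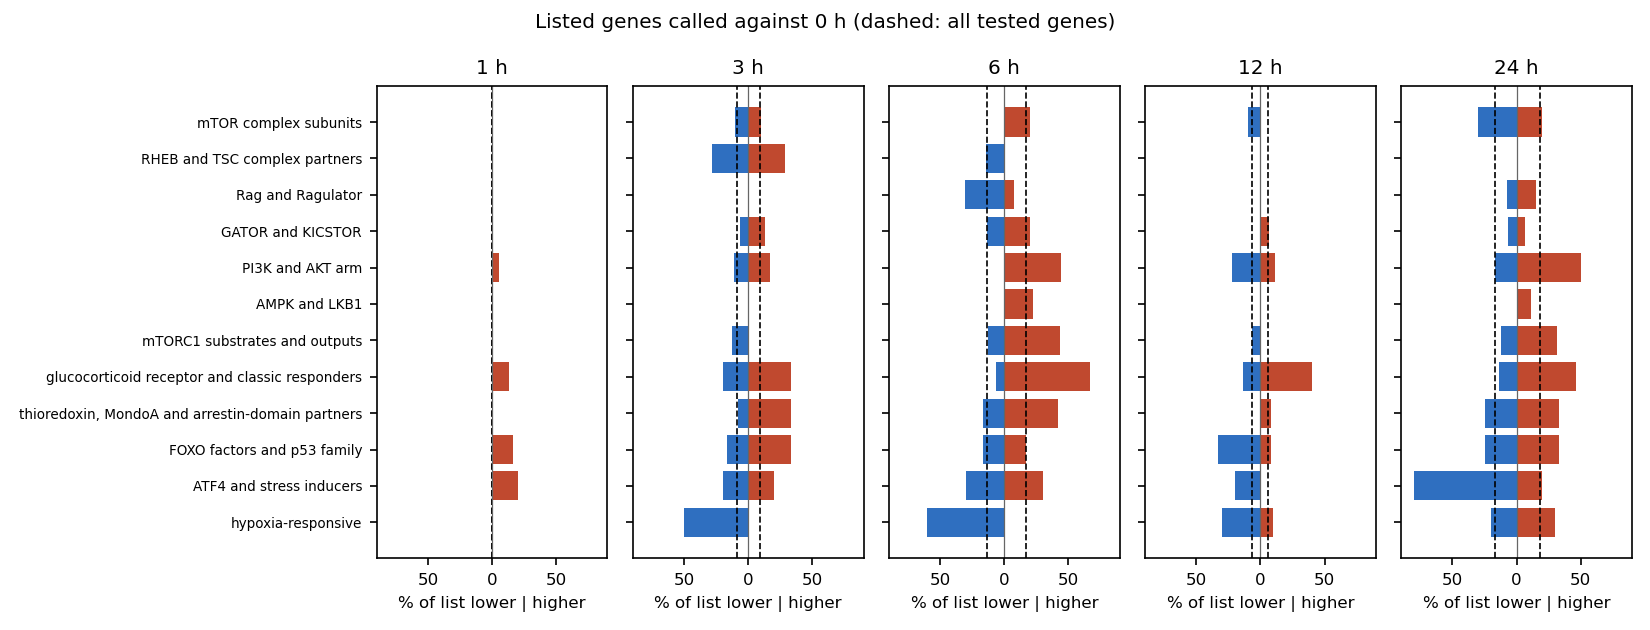
Share of each list's tested genes, in percent (horizontal axis), called lower (left, blue) or higher (right, red) than 0 h at each time, with dashed lines at the share of all tested genes. Hypoxia-responsive genes lie to the left at 3 and 6 h, and 8 of 10 ATF4 and stress genes are lower at 24 h.

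The plot of called shares by list places hypoxia, ATF4, glucocorticoid and FOXO or p53 genes, known inducers of DDIT4 or the sestrins, beside the other branches. Of 10 hypoxia-responsive genes, 5 were called at 3 h and 6 at 6 h, all of them lower, beside 8.71% and 13.2% of all genes called lower. Their median log2 fold changes were -0.35 and -0.51, beside -0.00407 and -0.0218 over all genes. EGLN3, an oxygen-sensing hydroxylase, fell from 16.5 ± 1.43 CPM at 0 h to 7.72 ± 1.01 CPM at 3 h (SD, n = 3), a change of -1.09 (SE 0.11, adjusted p = 1.3e-06). NDRG1 fell from 167.7 ± 23.9 to 81.2 ± 6.64 CPM at 6 h (SD, n = 3), or by 1.05 on the log2 scale (adjusted p = 9.7e-07). At 12 h, when DDIT4 peaked, 3 of the 10 were lower (CA9, BNIP3, PDK1) and 1 higher (VEGFA, 0.19, adjusted p = 0.0423). Of all genes, 6.48% were called lower and 5.96% higher at 12 h. VEGFA was not called there without replicate 2 or 3 of 0 h or replicate 1 or 2 of 12 h, nor with upper-quartile scaling, and PDK1 and BNIP3 lay at -0.38 and -0.29. At 24 h 3 of the 10 were higher and 2 lower, beside 18.0% and 17.1% of all genes. The higher ones were HIF1A (0.64, adjusted p = 0.00948), EPAS1 (0.33, adjusted p = 0.0169) and EGLN3 (0.29, adjusted p = 0.0239). The lower ones were CA9 (-0.97, adjusted p = 2.0e-06) and ADM (-0.7, adjusted p = 2.2e-05). EPAS1 was not called without replicate 1 of 0 h or replicate 2 or 3 of 24 h, and EGLN3 not without replicate 2 of 0 h or replicate 1 or 3 of 24 h.

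Of 10 ATF4 and stress genes, 2 were called at 1 h, both higher, beside 0.26% of all genes called higher. They were ATF3 (1.15, adjusted p = 3.8e-06) and PPP1R15A (0.6, adjusted p = 1.5e-05). At 24 h 8 were lower and 2 higher, beside 17.1% and 18.0% of all genes, with a median of -0.6 beside -0.00175 over all genes. CHAC1, a glutathione-degrading ATF4 target, fell from 13.5 ± 1.97 CPM to 4.96 ± 0.542 CPM (SD, n = 3; log2 change -1.44, adjusted p = 3.4e-06), and TRIB3, a pseudokinase that binds AKT, fell by 0.74 (adjusted p = 5.2e-06). ATF4 itself changed by -0.57 (adjusted p = 1.4e-05). The kinases EIF2AK3 (PERK) and EIF2AK4 (GCN2) rose, by 0.87 (adjusted p = 5.7e-04) and 0.25 (adjusted p = 0.00731), the latter not called without replicate 1 of 0 h. SESN2, an ATF4 target, was also lower at 24 h (-0.65), whereas DDIT4, likewise induced by ATF4, was 0.67 higher. Earlier, 4 of the 10 were called at 3 h (17.7% of all genes), 6 at 6 h (30.1%) and 2 at 12 h (12.4%). At 3 h, SESN2 was at -0.61. CHAC1 (-1.04, adjusted p = 1.3e-04) and TRIB3 (-0.51, adjusted p = 3.9e-04) were then lower, and ATF3 (0.68) and PPP1R15A (0.54) higher. ATF4 itself was called at 24 h alone. A part of ATF4 in the SESN2 and DDIT4 changes was not tested.

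Among 15 tested genes of the glucocorticoid receptor list, 10 were higher and 1 (CEBPD) lower at 6 h, beside 16.9% and 13.2% of all genes. FKBP5 also peaked then. The 10 were the receptor and chaperone genes NR3C1, HSP90AA1, HSP90AB1, PTGES3 and FKBP4, with DUSP1, SGK1, ERRFI1, BIRC3 and NFKBIA. The responders KLF9, CRISPLD2, GLUL and MT2A were not called at 6 h, and TSC22D3 was at -0.11 (adjusted p = 0.427). The count of 11 called was 8 to 11 with each library left out. CEBPD had risen by 0.78 at 3 h (adjusted p = 7.6e-04), and its value at 6 h (-0.44, adjusted p = 0.0331) was not called without any of the 3 libraries at 0 h or replicate 2 or 3 of 6 h. BIRC3 and NFKBIA, which are also targets of NF-kB, rose most, by 2.22 (adjusted p = 1.5e-11) and 1.39 (adjusted p = 1.5e-11) at 3 h, the time at which TSC22D3 was lowest. The receptor gene NR3C1 rose by 0.45 at 6 h (adjusted p = 0.00145). SGK1, a kinase of this list and of the PI3K list, turned from 0.68 at 3 h (adjusted p = 4.3e-06) to -0.83 at 24 h (adjusted p = 1.0e-06). Of the 12 genes in the FOXO and p53 list, 2 were called at 1 h (0.312% of all genes) and 6 at 3 h (17.7%). Later, 5 were called at 12 h (12.4%) and 7 at 24 h (35.1%). With each library left out these counts were 4 to 6 at 3 h, 3 to 4 at 12 h and 5 to 8 at 24 h. At 6 h, 4 of the 12 were called, beside 30.1% of all genes. FOXO3 (0.48, adjusted p = 2.0e-04) and CDKN1A (0.96, adjusted p = 1.2e-09) were higher, and TP73 (-0.59, adjusted p = 0.00337) and GADD45B (-0.35, adjusted p = 0.00547) were lower. FOXO3 stayed 0.29 higher at 24 h (adjusted p = 0.00792, not called without replicate 3 of 24 h). GADD45B rose by 1.08 at 1 h (adjusted p = 1.4e-06) and stood at -1.01 at 24 h (adjusted p = 2.7e-07). The TP73 estimate was fractional in all 17 libraries.

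Around TXNIP, 12 genes of thioredoxin, of the glucose sensors MondoA and ChREBP and of the arrestin-domain family were tested. At 6 h, 5 were higher and 2 lower, beside 16.9% and 13.2% of all genes. ARRDC4, the closest relative of TXNIP among MondoA targets, rose by 0.71 at 3 h (SE 0.121, adjusted p = 4.8e-04) and by 0.64 at 6 h (adjusted p = 7.1e-04), from 6.52 ± 0.0952 CPM at 0 h to 10.7 ± 1.46 CPM at 3 h (SD, n = 3). ARRDC3 rose by 0.48 at 6 h (adjusted p = 1.5e-04). MLXIP, which encodes MondoA, rose by 0.37 at 6 h (adjusted p = 2.5e-04). The 2 lower genes at 6 h were TXN and MLXIPL, which encodes ChREBP. MLXIPL, whose average log2 CPM was below 2, was at -1.38 (SE 0.349, adjusted p = 0.00609). Thioredoxin itself, TXN, was at 0.3 at 3 h (adjusted p = 0.0198), when TXNIP was not called. It was at -0.3 at 6 h (adjusted p = 0.0141), when TXNIP peaked, and at -0.44 at 24 h (adjusted p = 8.6e-04), when TXNIP was also below 0 h. The TXN call at 3 h was lost without replicate 2 or 3 of 0 h or replicate 2 of 3 h. That at 6 h was lost without replicate 1 of 0 h or replicate 2 or 3 of 6 h.

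Upstream, 8 of 18 PI3K and AKT genes were called at 6 h, all of them higher, beside 16.9% of all genes called higher. At 12 h, 2 were higher and 4 lower, beside 5.96% and 6.48% of all genes. The 4 lower were PIK3R2 (-0.47, adjusted p = 0.00415), IRS2 (-0.53, adjusted p = 3.9e-04), SGK1 (-0.58, adjusted p = 9.1e-05) and AKT1 (-0.18, adjusted p = 0.028). AKT1 was not called without replicate 2 of 0 h, any of the 3 libraries at 12 h, or with library size only. The count of 6 at 12 h was 3 to 5 with each library left out. At 24 h, 9 were higher and 3 lower (AKT1, IRS2 and SGK1), beside 18.0% and 17.1% of all genes. PHLPP2, the AKT phosphatase that FKBP5 recruits, rose from 15.9 ± 1.67 to 26.3 ± 3.74 CPM at 6 h (SD, n = 3; log2 change 0.73, adjusted p = 2.9e-04). PIK3CD rose by 0.65 at 6 h (adjusted p = 2.9e-05) and PIK3CB by 0.54 at 24 h (adjusted p = 6.0e-04). Of 9 AMPK and LKB1 genes, 2 were called at 6 h, beside 30.1% of all genes. They were CAB39 (0.44, adjusted p = 0.00202) and the catalytic subunit PRKAA1 (0.39, adjusted p = 0.0113). PRKAA1 was not called without replicate 3 of 6 h (0.34, adjusted p = 0.0559).

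In the TSC, Rag and GATOR branches, which carry growth factor and amino acid signals, genes were called in both directions. The list of RHEB and TSC complex partners also held TSC22D1, TSC22D2 and TSC22D4. These are relatives of TSC22D3 by name, not partners of the tuberous sclerosis complex. Of the 7 listed genes, 4 were called at 3 h, beside 17.7% of all genes, with RHEB (0.22) and TSC22D2 (0.24) higher and TSC22D4 (-0.26) and TSC22D1 (-0.21) lower. That count fell to 2 without replicate 1 of 0 h or replicate 1 or 2 of 3 h, and to 1 without replicate 2 or 3 of 0 h or replicate 3 of 3 h. The RHEB estimate was fractional in all 17 libraries. Of 13 Rag and Ragulator genes, 5 were called at 6 h, beside 30.1% of all genes. RRAGC was higher (0.36, adjusted p = 0.00158), and RRAGA, LAMTOR2, LAMTOR4 and LAMTOR5 were lower (-0.19, -0.31, -0.33 and -0.23). Only 3 were called without replicate 2 of 0 h or replicate 3 of 6 h, where RRAGA and LAMTOR5 were lost. RRAGC and RRAGB were 0.41 and 0.46 higher at 24 h (adjusted p = 4.7e-04 and 0.00112), and LAMTOR2 was lower (-0.27, adjusted p = 0.00865). In the GATOR list, on which sestrins act, 5 of 15 were called at 6 h, beside 30.1% of all genes. NPRL2, a subunit of GATOR1, fell by 0.43 (adjusted p = 0.00313) and SEC13 by 0.24 (adjusted p = 0.00467), while MIOS (0.29), SEH1L (0.22) and CASTOR2 (adjusted p = 0.0369) were higher. CASTOR2 was also the 1 gene of this list called at 12 h (1.26, SE 0.413, adjusted p = 0.047), beside 12.4% of all genes. That call was lost without replicate 1 or 2 of 0 h or without any of the 3 libraries at 12 h. At 3 h, ITFG2, a subunit of KICSTOR, rose by 0.6 (SE 0.142, adjusted p = 0.0079), and CASTOR3 was at -0.48 (adjusted p = 0.0366), a call lost without replicate 2 or 3 of 0 h or replicate 1 or 3 of 3 h. The count was 3 without replicate 2 of 0 h or of 6 h, where MIOS and CASTOR2 were lost, and 2 without replicate 3 of 6 h, where SEH1L was lost as well. The NPRL2 and ITFG2 estimates were fractional in all 17 libraries, that of LAMTOR4 in 15, of TSC22D4 in 10 and of CASTOR3 in 8.

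Among 10 subunits of the mTOR complexes, 5 were called at 24 h, beside 35.1% of all genes. TELO2 (-0.46, adjusted p = 0.00147) and MAPKAP1 (-0.19, adjusted p = 0.00835) were lower, and PRR5L (0.29) and TTI1 (0.17) were higher. The other was PRR5, an mTORC2 subunit named here after its values were seen, which had 10, 12 and 20 counts at 0 h and 1, 1 and 5 counts at 24 h (log2 change -2.52, SE 0.52, adjusted p = 0.00105, with -3.69 to -2.13 when each library was left out). MAPKAP1 was not called with library size only (-0.12, adjusted p = 0.105), and the count of 5 fell to 3 without replicate 1 or 3 of 0 h or replicate 2 of 24 h, where PRR5L and TTI1 were lost. MTOR itself was called at 6 h alone (0.18, adjusted p = 0.039), and this was lost with upper-quartile scaling or library size only and without any of the 3 libraries at 0 h or replicate 2 or 3 of 6 h.

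Downstream, 7 of 16 mTORC1 substrates and outputs were higher and 2 lower at 6 h, beside 16.9% and 13.2% of all genes. At 24 h, 5 of the 16 were higher and 2 lower, beside 18.0% and 17.1% of all genes. EIF4EBP1, the translation repressor that mTORC1 inactivates, fell from 93.7 ± 6.53 CPM at 0 h to 55.3 ± 4.32 CPM at 24 h (SD, n = 3; log2 change -0.76, SE 0.0896, adjusted p = 8.1e-06). The cap-binding protein EIF4E rose by 0.48 at 6 h (adjusted p = 0.00222), its estimate being fractional in all 17 libraries, and LARP1, the repressor of ribosomal protein mRNA, by 0.43 (adjusted p = 1.1e-04). ATG13, an autophagy initiator, rose by 0.5 at 24 h (adjusted p = 8.1e-05), and RPS6 was at -0.35 (adjusted p = 0.00201). The count of 7 at 24 h fell to 4 without replicate 1 of 0 h or replicate 2 of 24 h. These are transcript levels, and phosphorylation by mTORC1 was not measured.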

How the data were processed

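The authors deposited 1 table of gene-level expected counts (estimated numbers of fragments per gene, which need not be whole), named by its file name as RSEM output, and 10.8% of its values were not whole. The submitters' processing notes name cutadapt 1.18, STAR 2.7.0f and the build hg38. The RSEM version, the annotation and the strand setting are not given in the sources used here, and where strand was not used, overlapping genes could exchange counts. Libraries were stranded and prepared from mRNA, per the labels' protocols.

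Expected counts were rounded. Genes were filtered with filterByExpr of edgeR 4.0.16 (R 4.3.3), leaving 15365, and libraries were scaled by TMM. A quasi-likelihood model with 1 mean per time was fitted robustly to all 17 libraries. Later times were compared with 0 h and with the time before, and all times in 1 F-test, with Benjamini-Hochberg adjustment over all genes and a threshold of 0.05. Standard errors were derived from the F statistic. Log2 CPM used a prior count of 2. Levels per kb used the longest coding transcript of GENCODE 29, whose identifiers matched 58597 of 58870 entries without version. Scripts were tested on simulated data.

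The members and lists were chosen with earlier results of these data known. From each list, up to 4 genes with the largest called change at any time and an average log2 CPM of at least 2 were named, and for likeness the 5 genes with the highest r to DDIT4 and 1 for each other member. Further called genes are named where few of a list were called or beside a member they relate to, and these were chosen after their values were seen. Alternatives were RLE, upper-quartile and library size scaling, no filter or a stricter one (mean count 10 or more), non-robust estimation, limma-voom (limma 3.58.1), DESeq2 1.42.0, unrounded counts, 2 groups only, the replicate number as a block, an offset for length and GC content with and without that block, the close replicates averaged, and each library left out.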

Additional observations from a re-analysis of the deposited data

How the results depend on the processing

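Calls of SESN2 at 3 and 24 h, from 1 to 3 h and from 3 to 6 h, of TSC22D3 at 3 h and from 3 to 6 h, of FKBP5 from 3 to 6 h, and of TXNIP at 6 h, from 3 to 6 h and from 12 to 24 h kept their direction and their side of the threshold under every alternative run. The count of called members at 6 h went from 2 to 1 with upper-quartile scaling, with the length and GC offset, with that offset and the replicate block, and with replicates 2 and 3 averaged, and was 1 to 2 with each library left out. At 12 h it was 0 to 2 with each library left out. From 1 to 3 h it was 1 with only the 2 groups compared, and 1 to 2 with each library left out. From 6 to 12 h it was 1 with library size only, 0 with replicates 2 and 3 averaged, and 0 to 3 with each library left out, and from 12 to 24 h it was 1 to 2. The log2 fold change of DDIT4 ran from -1.16 to -0.99 at 1 h with each library left out. At 6 h DDIT4 stood at 0.057 with upper-quartile scaling and at 0.26 with the length and GC offset, with or without the replicate block. That offset gave DDIT4 0.96 at 12 h and 0.88 at 24 h, again in both forms, and library size only gave 0.75 at 24 h. The cause of these shifts was not tested.

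None of the members' changes that were called turned direction. Small changes that were not called did so 76 times, and the values follow, with main values within 0.18 of 0. With upper-quartile scaling these were -0.032 for SESN1 at 6 h, -0.048 for SESN3 at 6 h, -0.0053 for TSC1 at 6 h, -0.0033 for TSC2 at 3 h and 0.057 for DEPTOR from 6 to 12 h. With the length and GC offset these were -0.022 for SESN1 at 6 h, 0.0063 for TSC2 at 12 h, 0.027 for DEPTOR from 3 to 6 h, 0.0026 for TSC22D3 at 24 h, -0.1 for FKBP5 at 12 h and -0.17 for FKBP5 at 24 h. With that offset and the replicate block these were -0.023 for SESN1 at 6 h, 0.031 for SESN3 at 1 h, 0.0068 for TSC2 at 12 h, 0.023 for DEPTOR from 3 to 6 h, 0.002 for TSC22D3 at 24 h, -0.1 for FKBP5 at 12 h and -0.17 for FKBP5 at 24 h. With replicates 2 and 3 averaged at 6 and 24 h these were -0.018 for SESN1 at 6 h, -0.081 for SESN3 at 6 h, -0.0026 for TSC2 at 3 h and 0.052 for DEPTOR from 6 to 12 h. With library size only these were 0.03 for SESN1 from 12 to 24 h, -0.02 for TSC2 at 1 h, -0.067 for TSC2 at 3 h, 0.024 for DEPTOR from 3 to 6 h, 0.018 for DEPTOR from 6 to 12 h, 0.036 for FKBP5 from 12 to 24 h and -0.036 for TXNIP at 1 h. With the replicate block alone these were 0.034 for SESN3 at 1 h. With no filter these were -0.018 for TSC2 at 3 h. With limma-voom these were 0.003 for DEPTOR from 3 to 6 h. Of these, the FKBP5 value of -0.17 at 24 h passed the test with the offset (adjusted p = 0.0203) and with the offset and block (adjusted p = 0.0234). With each library left out in turn, the values that crossed 0 ran for SESN1 -0.31 to 0.045 at 1 h, -0.027 to 0.12 at 6 h, -0.11 to 0.18 at 24 h, -0.24 to 0.11 from 1 to 3 h, -0.017 to 0.12 from 6 to 12 h and -0.2 to 0.092 from 12 to 24 h, for SESN2 -0.12 to 0.025 at 6 h, for SESN3 -0.34 to 0.18 at 1 h and -0.086 to 0.2 at 6 h. They ran for TSC1 -0.085 to 0.031 from 1 to 3 h and -0.11 to 0.037 from 12 to 24 h, for TSC2 -0.021 to 0.1 at 1 h, -0.067 to 0.092 at 3 h, -0.1 to 0.025 at 12 h and -0.094 to 0.064 from 1 to 3 h, for DEPTOR -0.0072 to 0.36 at 1 h, -0.35 to 0.093 at 24 h, -0.3 to 0.33 from 3 to 6 h and -0.13 to 0.091 from 6 to 12 h. They ran for TSC22D3 -0.24 to 0.031 at 1 h, for FKBP5 -0.0059 to 0.08 at 12 h, -0.0072 to 0.052 at 24 h, -0.15 to 0.082 from 1 to 3 h and -0.052 to 0.032 from 12 to 24 h, for TXNIP -0.035 to 0.052 at 1 h. The cause was not tested.

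The correlations of deviations from the group means ran from -0.199 to 0.211 for same-numbered replicates (median 0.0108, 40 pairs) and from -0.163 to 0.199 for the others (median -0.00865, 80 pairs). Since they were not all above 0.1, the numbers were not taken as pairs, although 10 of 17 libraries correlated best with one of the same number, where 33.3% of pairs share a number. Calls were gained for SESN3 from 12 to 24 h without replicate 1 of 24 h (0.71), for TSC22D3 from 6 to 12 h with upper-quartile scaling (0.3), and for FKBP5 from 6 to 12 h with the length and GC offset, with or without the block (-0.16), and without replicate 1 of 6 h (-0.26). The replicate block changed no count of called members. DEPTOR, at 3 to 12 counts per library, and SESN3, at 17 to 97, are limited by depth.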
